A study of Mus musculus with 2 samples.

Results

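The AP-1 transcription factors were followed at the level of their transcripts in mouse haematopoietic stem and progenitor cells that carried either of 2 forms of PML/RARa. They were taken by gene symbol and comprise 4 genes of the FOS family (Fos, Fosb, Fosl1 and Fosl2), 3 of the JUN family (Jun, Junb and Jund) and 3 of the BATF family (Batf, Batf2 and Batf3). All 10 symbols were found, each once, among 34745 gene models. The cells came from the femoral marrow of C57BL/6 mice given 5-fluorouracil; progenitors were isolated with a kit, infected with lentivirus by spinning with polybrene at 6 µg/ml, kept for 24 h before fresh medium, and sorted for transduction, which gave 1 library with the PML/RARa form labelled 2KR and 1 library with wild-type PML/RARa (WT). PML/RARa is the fusion protein that drives acute promyelocytic leukaemia, and the series title names a pair of its lysines as the subject. Both cultures were grown in a myeloid medium with SCF at 50 ng/ml, IL-3 and IL-6 at 10 ng/ml each, hydrocortisone and 20% fetal bovine serum. The age and number of the mice, the promoter that drives the fusion and the time of collection are not stated in the labels, and an empty-vector arm named in the protocol was not analysed here.

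AP-1 is a dimer of proteins that share a basic region, which contacts DNA, and a leucine zipper, which joins the partners. FOS proteins need a JUN partner, whereas JUN proteins can also pair with each other, and BATF proteins, which lack an activation domain of their own, pair with JUN proteins and act together with IRF4 or IRF8. Many of these genes are immediate early genes, transcribed within minutes when growth factors, serum or stress activate MAP kinases, and in myeloid cells AP-1 is known for its part in cytokine responses and in monocyte and macrophage differentiation.

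The 2KR library held 20462011 counts and the WT library 17606168. Levels within a gene are given as CPM, counts scaled to library size with TMM factors, and a gene model was scored when its mean over both libraries was at least 1 CPM, which held for 12466 models and for 8 of the 10 AP-1 genes. A model was counted as different when the log2 ratio of CPM + 1, 2KR over WT, was at least 1 in size, that is 2-fold. Because each form had 1 library, no difference has a replicate check and no p-value was computed. Folds are ratios of CPM without the pseudocount, and their exact 95% intervals (Clopper-Pearson, given the sum of the counts) cover counting error only. All 10 markers of stem and progenitor cells on the list used, among them Kit, Cd34 and Gata2, had at least 10 counts in each library, and their summed level was 3946 CPM in 2KR and 3889 CPM in WT. Within that sum 0 of 10 differed 2-fold, but they went both ways: Cd34 had 723 CPM in 2KR and 388 CPM in WT and Myb 851 CPM in 2KR and 613 CPM in WT, whereas Gata2 had 447 CPM in 2KR and 683 CPM in WT and Kit 1158 CPM in 2KR and 1359 CPM in WT. Markers of B and T cells summed to 0.679 CPM in 2KR and 0.515 CPM in WT, with Cd3e and Cd79b at 0 counts in both, and neutrophil markers to 2.33 CPM in 2KR and 2.29 CPM in WT, with Camp at 0 in both. Erythroid markers summed to 27.1 CPM in 2KR and 18.8 CPM in WT, with Hbb-bs at 0 in both. Markers of stroma and endothelium summed to 1131 CPM in 2KR and 1099 CPM in WT, with none at 0. Nearly all of that sum was Pecam1, at 669 CPM in 2KR and 550 CPM in WT, and Pdgfrb, at 451 CPM in 2KR and 543 CPM in WT. Cdh5 had 9.27 CPM in 2KR and 4.63 CPM in WT, and the collagen genes on that list had less.

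The AP-1 transcripts were lower in cells with the 2KR form, and the size of the difference separated the genes. Of the 8 scored members, 4 were at least 2-fold lower in 2KR (Fos, Fosb, Fosl2 and Junb), 4 were lower by less than 2-fold (Fosl1, Jun, Jund and Batf), and 0 were higher. Of all scored models, 4.56% were at least 2-fold lower in 2KR and 2.66% were at least 2-fold higher. The median log2 ratio was -1.36 over the 8 scored members and 0.02 over all scored models. A ratio below 1 was found in all 8, against 47.7% of all scored models, and for all 8 the counting interval lay wholly below 1, against 28.5%. The other 2 members, Batf2 and Batf3, were too low to be scored. By the same measure 2 of the 8, Fos and Fosb, were at least 4-fold lower, against 1.12% of all scored models, and Junb lay just short of that line with a log2 ratio of -1.98. Where the mean reached 50 CPM or more, 3 of 5 AP-1 members were at least 2-fold lower in 2KR, against 2.01% of all models at that level. In bulk RNA, fewer cells that express a gene and less of its RNA per cell cannot be told apart.

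**Figure D1:**
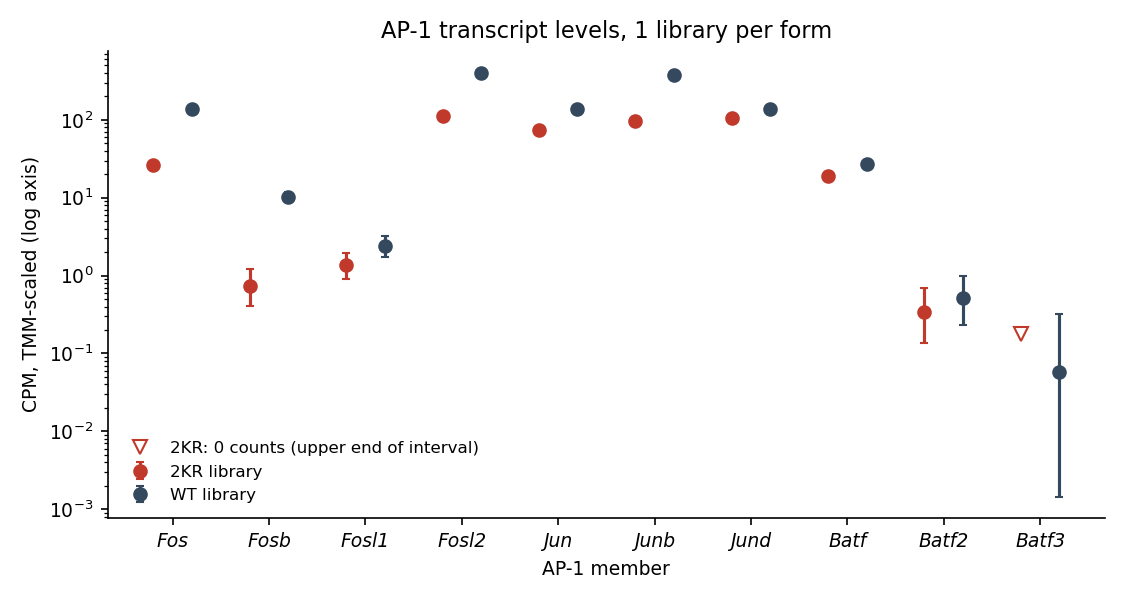
Level of each AP-1 gene in CPM (log axis) in the 2KR library (red, left of each pair) and the WT library (grey-blue, right), 1 library per form; bars are exact 95% counting intervals and the open triangle is the upper end of the interval for 0 counts. The 2KR point lies below the WT point for every member with counts in both, with the widest gaps at Fos, Fosb, Fosl2 and Junb, and narrow gaps at Jund and Batf.

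The promoter windows of the members that differed most, and of Jun, are shown because these genes were lower together and because AP-1 genes are known to be controlled by short elements near their start. RefSeq promoters (GRCm38.p6, 250 bases before to 50 bases after the start) were found for 8 of the 10 members, all except Fosl1 and Batf2. The Fosl2 window begins 421 bases inside the gene model that was counted, since the RefSeq start lies downstream of that model's start, and it is not the sequence upstream of the model. Each is written 5′ to 3′ on the strand of the gene, and capitals mark TGACG, the core of the cyclic AMP response element, TGACATCA, an AP-1-like element known from the Jun promoter, and TATAAA, the TATA box, on either strand.
Fos, chr12:85473640-85473939, plus strand: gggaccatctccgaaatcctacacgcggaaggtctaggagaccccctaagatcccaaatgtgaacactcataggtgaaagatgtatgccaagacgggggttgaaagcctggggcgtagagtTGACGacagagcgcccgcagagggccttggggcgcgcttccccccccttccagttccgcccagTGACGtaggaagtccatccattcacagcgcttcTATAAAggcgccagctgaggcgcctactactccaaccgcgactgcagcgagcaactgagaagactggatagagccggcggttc
Fosb, chr7:19309996-19310295, minus strand: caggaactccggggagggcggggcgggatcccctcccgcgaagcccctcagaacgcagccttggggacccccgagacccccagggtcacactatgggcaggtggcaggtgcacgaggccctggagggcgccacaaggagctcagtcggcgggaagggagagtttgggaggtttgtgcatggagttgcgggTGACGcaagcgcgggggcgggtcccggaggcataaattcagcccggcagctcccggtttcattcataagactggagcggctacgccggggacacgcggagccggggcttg
Fosl2, chr5:32136222-32136521, plus strand: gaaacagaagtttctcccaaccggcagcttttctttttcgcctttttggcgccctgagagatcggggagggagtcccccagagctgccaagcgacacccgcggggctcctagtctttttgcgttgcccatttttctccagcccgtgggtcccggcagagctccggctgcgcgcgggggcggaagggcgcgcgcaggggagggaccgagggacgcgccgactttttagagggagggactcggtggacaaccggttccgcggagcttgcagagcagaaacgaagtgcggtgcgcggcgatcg
Junb, chr8:84978699-84978998, minus strand: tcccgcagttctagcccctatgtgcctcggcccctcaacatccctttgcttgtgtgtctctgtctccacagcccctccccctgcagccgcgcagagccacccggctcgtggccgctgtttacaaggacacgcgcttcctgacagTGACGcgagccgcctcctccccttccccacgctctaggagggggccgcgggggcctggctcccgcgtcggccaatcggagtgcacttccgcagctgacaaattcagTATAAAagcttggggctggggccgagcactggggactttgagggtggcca
Jun, chr4:95052173-95052472, minus strand: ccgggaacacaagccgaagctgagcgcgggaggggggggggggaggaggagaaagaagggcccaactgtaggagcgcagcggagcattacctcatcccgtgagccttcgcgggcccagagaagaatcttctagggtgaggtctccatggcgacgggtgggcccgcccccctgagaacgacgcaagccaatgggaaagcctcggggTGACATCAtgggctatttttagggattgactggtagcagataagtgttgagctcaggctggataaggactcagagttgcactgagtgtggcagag

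TGACG was present in the promoters of Fos, Fosb, Junb and Batf, 4 of the 8, and in 20.8% of all 32851 RefSeq promoters of this length. In Fos it occurred at positions -129 to -125 and again at -66 to -62, counted from -1 at the base before the RefSeq start. It lay at -60 to -56 in Fosb, at -106 to -102 in Junb and at -98 to -94 in Batf. TGACATCA was found in Jun alone among the 8, at -45 to -38, and in 3.62% of all promoters. TATAAA was found in Fos at -33 to -28 and in Junb at positions 1 to 6 after the RefSeq start, and in 13.6% of all promoters. CCAAT was found in Jun and Junb and in 37.4% of all promoters. The full cyclic AMP response element TGACGTCA, the consensus AP-1 site TGANTCA and the CArG box, which binds serum response factor, were each found in none of the 8 windows, against 1.79%, 7.81% and 1.63% of all promoters. The windows begin 250 bases before the RefSeq start, so an element further upstream, such as a CArG box, would not be seen. Of the 8, the Batf3 window, like that of Fosl2, begins inside the counted model, by 317 bases. TGACGTCA contains TGACG on each strand, so the counts of these elements overlap. The window of Fosl2, a gene at least 2-fold lower in 2KR, lies inside the counted model and held none of the 7 elements searched, and that of Batf, which was not 2-fold lower, held TGACG.

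Within the FOS family, 3 of 4 members were at least 2-fold lower in 2KR. Fos (ENSMUSG00000021250, chromosome 12, 85473890 to 85477273, plus strand, GRCm38) encodes the founding partner of JUN proteins. It had 545 counts in 2KR and 2378 in WT, or 26.4 CPM in 2KR and 136 CPM in WT, 5.14-fold lower in 2KR (4.68 to 5.65). Of the 12466 scored models, 91 had a more negative log2 ratio.

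Fosb (ENSMUSG00000003545, chromosome 7, 19302721 to 19310045, minus strand) encodes a FOS protein that also exists as a truncated splice form, which gene-level counts cannot separate. It had 15 counts in 2KR and 177 in WT, which is 0.728 CPM in 2KR and 10.1 CPM in WT, 13.9-fold lower (8.21 to 25.4). It was scored through its level in WT, so its place among the scored members rests on the library in which it was high. Fosb had the largest fold of the family and the widest interval, because its 2KR value rests on few reads.

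Fosl2 (ENSMUSG00000029135, chromosome 5, 32135801 to 32157842, plus strand) encodes FRA-2, a FOS-related protein without the strong activation domain of FOS. It was the member with the most reads, with 2287 counts in 2KR and 7041 in WT. Its level was 111 CPM in 2KR and 403 CPM in WT, 3.63-fold lower in 2KR (3.46 to 3.81). Fosl1 (ENSMUSG00000024912, chromosome 19, 5447703 to 5455945, plus strand) encodes the related FRA-1, whose gene is itself known as an AP-1 target. It was low in both libraries, with 28 counts in 2KR and 42 in WT, or 1.36 CPM in 2KR and 2.40 CPM in WT. The ratio corresponds to 1.77-fold lower, and its interval of 1.07 to 2.96 spans 2-fold, so this depth does not show on which side of 2-fold Fosl1 lay.

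The JUN family did not move as a block. Junb (ENSMUSG00000052837, chromosome 8, 84976909 to 84978748, minus strand) encodes a JUN protein that restrains proliferation, and mice without it in blood-forming cells develop a myeloproliferative disease. It had 1970 counts in 2KR and 6657 in WT, or 95.6 CPM in 2KR and 381 CPM in WT, 3.98-fold lower in 2KR (3.79 to 4.19). Jun (ENSMUSG00000052684, chromosome 4, 95049034 to 95052222, minus strand) encodes the strongest activator of the family. It had 1531 counts in 2KR and 2401 in WT, which is 74.3 CPM in 2KR and 137 CPM in WT, 1.85-fold lower (1.73 to 1.97). Jund (ENSMUSG00000071076, chromosome 8, 70697739 to 70700616, plus strand), the member with the most constant expression in many cell types, had 2215 counts in 2KR and 2395 in WT. Its level was 107 CPM in 2KR and 137 CPM in WT, 1.27-fold lower in 2KR (1.20 to 1.35).

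The members of this family therefore differed among themselves by more than counting error, and these comparisons do not depend on the scaling of the libraries. The ratio of 2KR over WT was 3.13-fold lower for Junb than for Jund (2.89 to 3.37, counting interval on the log scale) and 2.15-fold lower for Junb than for Jun (1.99 to 2.34). For Jun it was 1.45-fold lower than for Jund (1.33 to 1.58). Between the families, Junb and Fosl2 were close, with a ratio for Fosl2 that was 1.10 times that of Junb (1.02 to 1.18). Fos lay 1.42-fold below Fosl2 (1.28 to 1.57) and Fosb 2.70-fold below Fos (1.58 to 4.62). Variation between cultures was not measured and could be larger than these intervals.

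**Figure D2:**
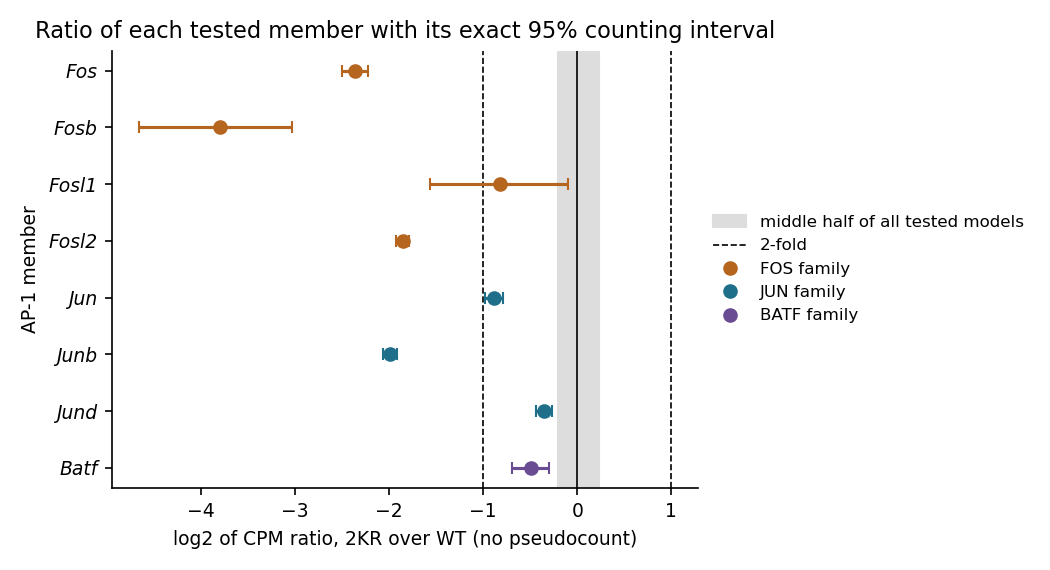
Log2 of the CPM ratio, 2KR over WT, for the 8 scored AP-1 members (no pseudocount), coloured by family, with exact 95% counting intervals; dashed lines mark 2-fold and the grey band the quartiles of all scored models on the CPM + 1 scale, -0.21 to 0.23. Fos, Fosb, Fosl2 and Junb lie wholly beyond 2-fold on the lower side, Fosl1 spans the line, and Jun, Jund and Batf lie between the line and 0.

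In the BATF family, 1 of 3 members was scored. Batf (ENSMUSG00000034266, chromosome 12, 85686669 to 85709087, plus strand), which is known for its role in lymphocytes and in the response of stem cells to DNA damage, had 395 counts in 2KR and 473 in WT. Its level was 19.2 CPM in 2KR and 27.1 CPM in WT, 1.41-fold lower in 2KR (1.23 to 1.62). The ratios of Batf and Jund were close, that of Batf being 0.903 times that of Jund (0.781 to 1.04). Batf2 (ENSMUSG00000039699, chromosome 19, 6140983 to 6172476, plus strand), a gene induced by interferon, had 7 counts in 2KR and 9 in WT, a ratio of 0.660 with an interval of 0.209 to 1.99, so no difference was detectable at this depth. Batf3 (ENSMUSG00000026630, chromosome 1, 191097847 to 191108945, plus strand), needed in mice for cross-presenting dendritic cells, had 0 counts in 2KR and 1 in WT. Both values are under the floor of 3 counts per library, 0.146 CPM in 2KR and 0.172 CPM in WT, and no fold is given.

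Levels of different genes were compared on the deposited FPKM, which scales counts to gene length. In 2KR the order was Junb at 52.3 FPKM, Jund at 37.6, Jun at 23.5, Batf at 20.2, Fosl2 at 9.63 and Fos at 7.02, followed by Fosl1 at 0.802, Fosb at 0.195, Batf2 at 0.0599 and Batf3 at 0 FPKM. In WT it was Junb at 205 FPKM, Jund at 47.3, Jun at 42.8, Fos at 35.6, Fosl2 at 34.5 and Batf at 28.1, followed by Fosb at 2.68, Fosl1 at 1.40, Batf2 at 0.0895 and Batf3 at 0.0178 FPKM. Fos stood 2 places higher in the order of WT than in that of 2KR, and Batf 2 places lower. Counting intervals overlapped between Jun and Batf in 2KR and between Fos and Fosl2 in WT, and, among the lowest genes, between Fosb and Batf2 in 2KR and between Batf2 and Batf3 in both. The spread between cultures is unknown for every step of the order.

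The members' parts in each family also differed between the libraries. The summed level of the FOS family was 17.6 FPKM in 2KR and 74.1 FPKM in WT, 4.20-fold lower in 2KR. Fos made up 39.8% of that sum in 2KR and 48.0% in WT, Fosl2 54.6% in 2KR and 46.5% in WT, Fosl1 4.54% in 2KR and 1.88% in WT, and Fosb 1.11% in 2KR and 3.61% in WT. The JUN family summed to 113 FPKM in 2KR and 296 FPKM in WT, 2.61-fold lower. Junb made up 46.1% of the JUN sum in 2KR and 69.5% in WT, Jund 33.2% in 2KR and 16.0% in WT, and Jun 20.7% in 2KR and 14.5% in WT. The BATF sum was 20.3 FPKM in 2KR and 28.2 FPKM in WT, nearly all of it Batf in each library.

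These levels depend on the gene lengths behind the deposited values. For Fos that length was 3792 bases, more than the 3384 bases its model spans, so some bases entered it more than once. With the union of GENCODE M21 exons as length, chosen after seeing the data, Jund was the highest member in 2KR at 64.9 FPKM, ahead of Junb at 41.8, whereas Junb was the highest in WT at 164 FPKM, ahead of Jund at 81.6. The JUN share of Junb was then 32.1% in 2KR and 56.9% in WT, and that of Jund 49.8% in 2KR and 28.3% in WT. The share of Junb was lower in 2KR and that of Jund higher under either length, whereas the first place in 2KR changed. Fos then stood in place 6 in 2KR at 11.3 FPKM and in place 3 in WT at 57.4 FPKM, where it was above Jun at 42.8. In 2KR, Batf2 and Fosb changed places, at 0.136 and 0.117 FPKM, with counting intervals that overlap.

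**Figure D3:**
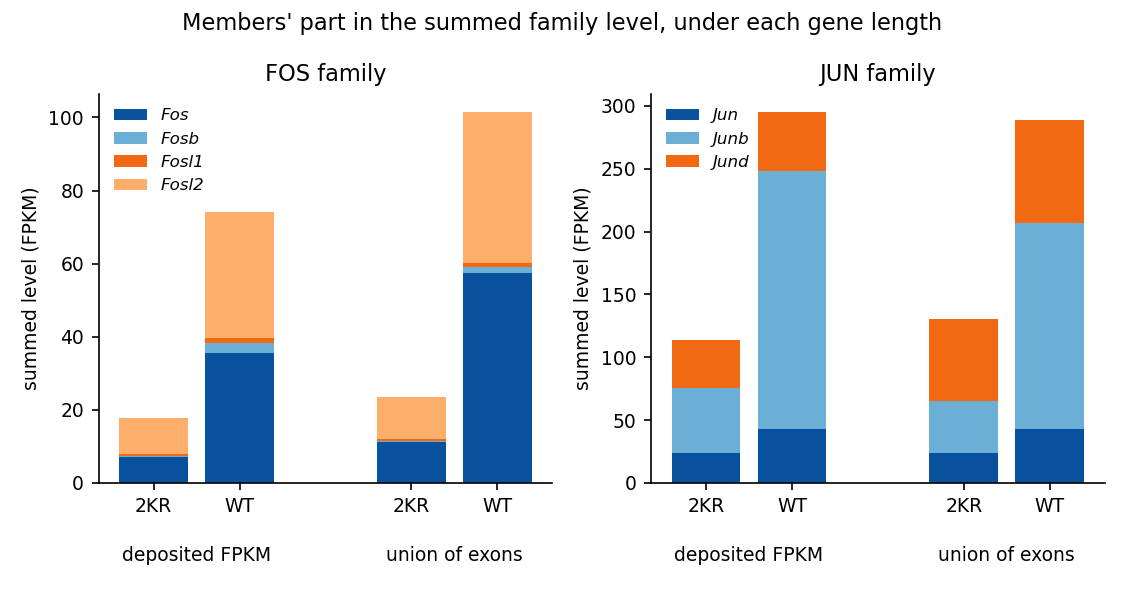
Summed FPKM of the FOS family (left panel) and the JUN family (right panel), stacked by member, with the 2KR bar left of the WT bar, on the deposited FPKM and on FPKM recomputed over the union of exons; 1 library per form, no error. The JUN bar is 113 FPKM in 2KR and 296 FPKM in WT as deposited, and most of the gap is in the Junb segment.

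Other models at the same loci were checked, since the labels do not say whether the counting used strand. Junos, an antisense RNA that overlaps Jun by 689 bases, had 5 counts in 2KR and 1 in WT. Gm11175 overlaps Jund by 543 bases on the other strand and had 8 counts in 2KR and 5 in WT. Arl2, a small GTPase gene on the strand opposite Batf2, overlaps it by 424 bases and had 506 counts in 2KR and 505 in WT, against 7 counts in 2KR and 9 in WT for Batf2 itself, which leaves the Batf2 counts uncertain. No model overlapped Fos, Fosb, Fosl1, Fosl2, Junb, Batf or Batf3.

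The genes beside the AP-1 members were compared in the same way. The nearest scored model on each side of each member came to 19 distinct models, since Jdp2 lies between Fos and Batf. Of these 19, 0 were at least 2-fold lower in 2KR and 0 at least 2-fold higher on the CPM + 1 scale. The shares over all scored models were 4.56% lower and 2.66% higher, and a count of 0 among 19 is near them. Of the 19, 9 had a ratio below 1 and 10 above, and their log2 ratios ran from -0.63 to 0.97 with a median of 0.04. Beside Fos, Tmed10 had 287 CPM in 2KR and 300 CPM in WT, a log2 ratio of -0.07. Jdp2, itself a leucine zipper protein that represses AP-1, had 11.6 CPM in 2KR and 18.5 CPM in WT, a log2 ratio of -0.63. Beside Junb, Prdx2 had 103 CPM in 2KR and 87.8 CPM in WT and Hook2 16.7 CPM in 2KR and 14.8 CPM in WT. Beside Fosl2, Bre had 50.8 CPM in 2KR and 46.7 CPM in WT and Ppp1cb 237 CPM in 2KR and 192 CPM in WT. Beside Fosb, Vasp had 105 CPM in 2KR and 142 CPM in WT and Ercc1 14.7 CPM in 2KR and 14.3 CPM in WT. Next to Jun, Mysm1 had 82.4 CPM in 2KR and 87.2 CPM in WT. Fggy, on the other side of Jun, had 6.70 CPM in 2KR and 10.6 CPM in WT. Batf lies between Jdp2 and 0610007P14Rik, which had 55.7 CPM in 2KR and 77.4 CPM in WT. The log2 ratio of 0610007P14Rik was -0.47 and that of Batf itself -0.48. Ccdc85b, 0.843 kb from Fosl1, had the highest ratio of the 19, with 16.9 CPM in 2KR and 8.18 CPM in WT. Its fold without the pseudocount was 2.07 (1.70 to 2.53), and it stayed under the 2-fold rule through the CPM + 1 scale, with a log2 ratio of 0.97.

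**Figure D4:**
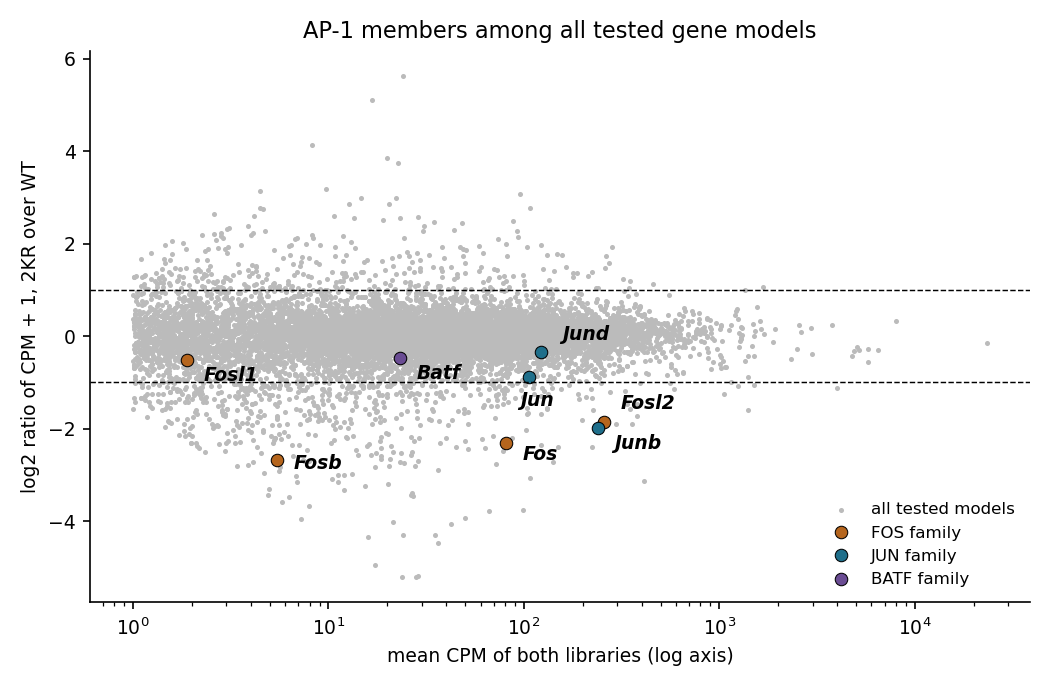
Log2 ratio of CPM + 1, 2KR over WT, against mean CPM (log axis) for all 12466 scored gene models (grey), with the 8 scored AP-1 members in colour by family; dashed lines mark 2-fold. Fosl2 and Junb lie among abundant transcripts, where few grey points fall below the lower line. Fosl1, Batf and Jund lie above that line, with 10.9%, 12.3% and 16.9% of all scored models at a lower log2 ratio.

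Genes that act with or on AP-1 were followed in lists, which were chosen with earlier results of these data known. Of 12 scored dimer partners and related factors, 2 were at least 2-fold lower in 2KR and 0 higher, with a median log2 ratio of -0.18, against 0.02 over all scored models. The shares to set beside this list and each list below are 4.56% of all scored models lower and 2.66% higher. Maf, a large leucine zipper factor, had 24.6 CPM in 2KR and 78.5 CPM in WT, 3.19-fold lower (2.88 to 3.54), and the small partner Maff 7.52 CPM in 2KR and 17.7 CPM in WT, 2.35-fold lower (1.93 to 2.87). Nfe2l2, the regulator of the oxidative stress response, was the most abundant by CPM, with 206 CPM in 2KR and 201 CPM in WT. Of the BATF partners, Irf4 had 0 counts in both libraries, and Irf8 had 129 counts in 2KR and 93 in WT. Atf3, a stress-induced partner of JUN, had 9 counts in 2KR and 7 in WT and was not scored.

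Among the upstream kinases a pair of genes differed 2-fold in opposite directions, and none of the factors known to bind the Fos and Jun promoters did. In lists of 18 and 11 genes, counts of 1 and 0 are near the shares over all scored models, 4.56% lower and 2.66% higher. Of 18 scored MAP kinase pathway genes, 1 was at least 2-fold lower in 2KR and 1 higher, with a median log2 ratio of -0.12; the counting interval lay wholly below 1 for 12 and wholly above 1 for 3. Over all 12466 scored models this interval lay wholly below 1 for 3552 (28.5%) and wholly above 1 for 3943. Mapk7, which encodes ERK5, had 15.1 CPM in 2KR and 40.2 CPM in WT, 2.66-fold lower (2.32 to 3.04). Rps6ka3, which encodes the ERK-activated kinase RSK2, had 254 CPM in 2KR and 105 CPM in WT, a ratio of 2.43 (2.30 to 2.56). Of 11 scored promoter-binding factors, 0 differed 2-fold, with a median of -0.08. Mef2d, the most abundant of them by CPM, had 193 CPM in 2KR and 198 CPM in WT, and Srf, the serum response factor, 67.2 CPM in 2KR and 78.4 CPM in WT. These values are mRNA levels, and the activity of kinases and bound factors was not measured.

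Genes known for the turnover of FOS and JUN proteins or mRNAs included 1 of 11 scored that was at least 2-fold lower in 2KR and 0 higher, with a median of 0.03. Zfp36, which encodes tristetraprolin, a protein that directs decay of AU-rich mRNAs such as that of Fos, had 151 CPM in 2KR and 564 CPM in WT, 3.74-fold lower (3.59 to 3.90). The related Zfp36l2 was the most abundant by CPM, with 782 CPM in 2KR and 1258 CPM in WT. Ubiquitin ligase genes for JUN were close, with Fbxw7 at 31.8 CPM in 2KR and 29.3 CPM in WT and Itch at 195 CPM in 2KR and 212 CPM in WT.

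Of 16 scored genes known as AP-1 targets in other systems, 4 were at least 2-fold lower in 2KR, 1 was higher, and the median log2 ratio was -0.40. The shares over all scored models were 4.56% lower and 2.66% higher. Ptgs2, the inducible cyclooxygenase, was 8.86-fold lower (8.42 to 9.32), at 83.3 CPM in 2KR and 738 CPM in WT. Lif, a cytokine of the IL-6 family, was 5.02-fold lower (4.46 to 5.66), the adhesion receptor Cd44 3.62-fold (3.17 to 4.15) and the urokinase receptor Plaur 3.27-fold (3.06 to 3.50). Ccnd1, the cyclin D1 gene, lay on the other side with 44 counts in 2KR and 6 in WT, a ratio of 6.22 (2.64 to 17.9); it was under 1 CPM in WT and was scored through its level in 2KR. Vim, the most abundant by CPM, had 1287 CPM in 2KR and 1224 CPM in WT. The collagenase gene Mmp13, the stromelysin gene Mmp3 and the chemokine gene Ccl2 had 0 counts in both libraries. Binding of AP-1 to these genes was not measured.

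Other immediate early genes shared the direction. Of 17 scored, 7 were at least 2-fold lower in 2KR and 0 higher, with a median log2 ratio of -0.75, and 15 of the 17 had a ratio below 1. Egr3 was 13.5-fold lower (10.6 to 17.3), Klf4 7.90-fold (5.36 to 12.0), Nr4a1 7.13-fold (6.37 to 7.99) and Egr1, the most abundant, 3.03-fold lower (2.97 to 3.09). Myc and Ier5 were the members with a ratio above 1, Myc at 174 CPM in 2KR and 157 CPM in WT and Ier5 at 37.3 CPM in 2KR and 33.1 CPM in WT. Zfp36 and Srf stand in this list and in another, and Klf4 stands in this list and among the monocyte and macrophage markers.

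Immediate early genes are known to respond to cell handling, so heat shock genes were set beside them. Of 12 scored, 1 was at least 2-fold lower in 2KR and 0 higher, with a median of 0.12. That gene, Hspb1, had 17 counts in 2KR and 57 in WT; it was under 1 CPM in 2KR and was scored through its level in WT. The stress-inducible Hspa1a had 5.34 CPM in 2KR and 4.98 CPM in WT, and Hspa1b 21.8 CPM in 2KR and 15.0 CPM in WT; these are near-identical copies, so the division of reads between them is uncertain. Hsp90ab1, the most abundant by CPM, had 2746 CPM in 2KR and 2337 CPM in WT. The time between sorting and lysis is not stated in the labels. The part of cell handling in the differences of the immediate early genes was not tested, and heat shock genes do not measure it.

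**Figure D5:**
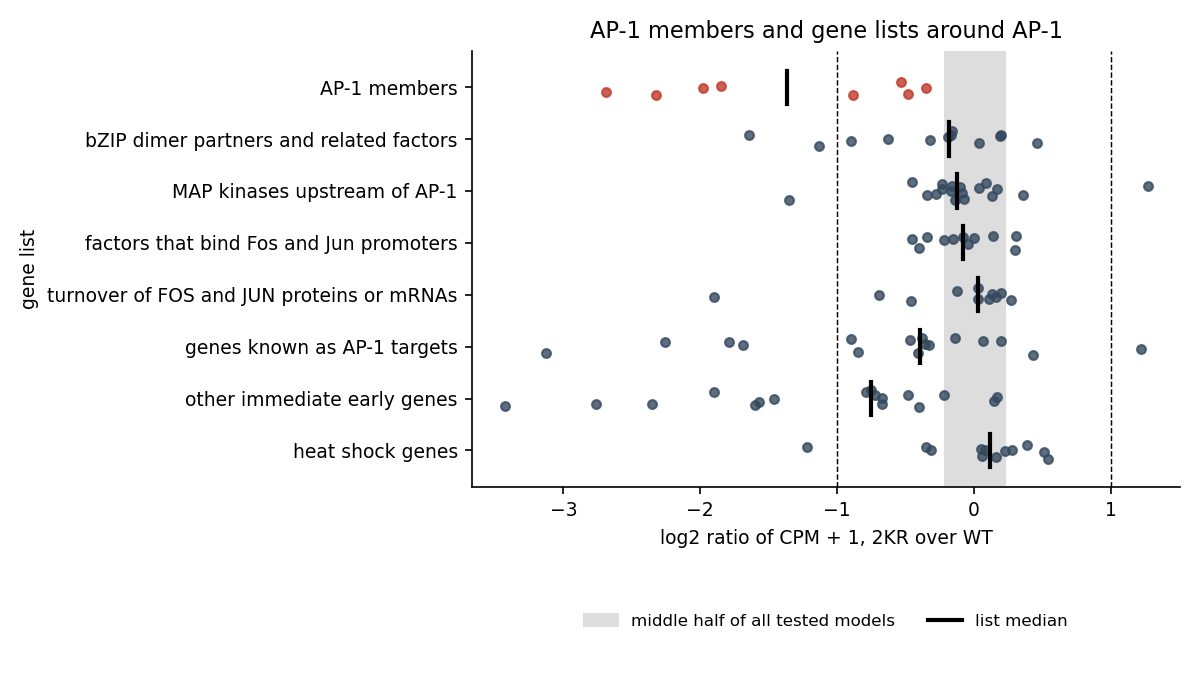
Log2 ratio of CPM + 1, 2KR over WT, of every scored gene in the AP-1 group (red) and in 7 lists around it (grey-blue), with list medians as black bars, dashed lines at 2-fold and a grey band from the lower to the upper quartile of all scored models. The AP-1 median is -1.36 and that of the other immediate early genes -0.75, while the medians of kinases, promoter-binding factors, turnover genes and heat shock genes lie within the band.

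Markers of mast cells and of monocytes were lower beside the AP-1 genes. Of 9 mast cell markers, 6 were scored and all 6 were at least 2-fold lower in 2KR. Of these, 2 (Cma1 and Ms4a2) were under 1 CPM in 2KR and were scored through their level in WT. The list summed to 2996 CPM in 2KR and 6452 CPM in WT, with Fcer1a at 0 in both libraries and Tpsb2 and Mcpt4 at 0 in 2KR. Monocyte and macrophage markers, 9 symbols over 10 models, summed to 123 CPM in 2KR and 272 CPM in WT, with 3 of 7 scored at least 2-fold lower in 2KR, 1 higher and none at 0. Klf4, counted above as an immediate early gene, is 1 of these 3, so the lists are not separate there. The higher one, Ly6c2, was under 1 CPM in WT and was scored through its level in 2KR. The part of these markers in the AP-1 differences was not tested.

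A pattern over 2 libraries is a single ratio, so likeness between genes was limited to that. Of 4151 models with a mean CPM within 2-fold of that of Fos, 7 had a log2 ratio within 0.1 of its value of -2.32. The nearest named genes were Adrbk2, which encodes a receptor kinase, at -2.36, Lif at -2.26 and Frmpd1 at -2.38. Of 1872 such models for Junb, 2 lay within 0.1 of its value of -1.98. The nearest were Fgl2, a fibrinogen-like protein gene, and Zfp36, both at -1.90, followed by Fetub at -1.82.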

How the data were processed

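RNA-seq was deposited for 1 library with the 2KR form of PML/RARa and 1 with the wild-type form (WT), grouped by the infection label. HISAT2 2.0.4 and the build GRCm38 are named in the submitters' processing notes; the counting program, annotation release and strand setting were not given in the sources used here. Raw read counts and FPKM values for 34745 gene models were deposited by the authors, per the file headers. The length behind each FPKM was computed from the count, the FPKM and the library total. Among 9982 models with at least 10 counts in WT and the same span in GENCODE M21, this length exceeded the union of exons by over 1% in 8235, so comparisons between genes depend on it; ratios within a gene do not.

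Counts were scaled with TMM factors of edgeR 4.0.16 in R 4.3.3 (1.0070 for 2KR, 0.9930 for WT). Python 3.11.15, numpy 2.4.6, pandas 2.3.3 and scipy 1.17.1 gave ratios and intervals, and matplotlib 3.10.9 the figures. The log2 ratio of CPM + 1 understates differences of low genes. With 1 library per form there is no replicate error, and no test was made. The 2-fold rule and the intervals were tested on simulated data that held counting error only. Variation between cultures was not simulated, so the simulation does not test the calls against it. Differences between 2 members' ratios have an approximate 95% interval on the log scale. Reads without molecular identifiers are not independent molecules, so intervals and floors cover counting error only. Strands and exons come from GENCODE M21, which matched 34267 identifiers, and promoters from RefSeq.

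The members and lists were chosen with earlier results of these data known. Named were all members, models that overlap them, models beside them, up to 4 genes of each list past 2-fold with the largest size of ratio, its most abundant gene, and the 3 genes nearest in ratio to Fos and to Junb. Of the genes this rule and the marker lists would name, 2 are not reported here. Named outside this rule, after their values were seen, were Irf4, Irf8, Atf3, Srf, Fbxw7, Itch, Mmp13, Mmp3, Ccl2, Ccnd1, Myc, Ier5, Hspa1a, Hspa1b and the cell type markers. Alternatives were DESeq2 1.42.0 size factors, library totals with and without mitochondrial models, pseudocounts of 0.1 and 5, other filters, FPKM in place of CPM and a stricter call.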

Additional observations from a re-analysis of the deposited data

How the results depend on the processing

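The counts of AP-1 members at least 2-fold lower (4) and higher (0) in 2KR were the same under all 9 alternatives. Over 6 alternatives of scaling, pseudocount and unit, all 60 values of the members' log2 ratios stayed below 0. A pseudocount added to both libraries cannot change the sign of a ratio, and the 60 values include the unscored Batf2 and Batf3. The count of 60 therefore adds no evidence on direction. Low genes moved most: Fosb ran from -3.63 with a pseudocount of 0.1 to -1.40 with 5, whereas Junb ran from -1.99 to -1.94 and Jund from -0.35 to -0.32. The number of all models at least 2-fold lower and higher, 569 and 331, was 297 and 147 with a pseudocount of 5. A larger pseudocount by its arithmetic brings ratios nearer to 1, most for low models. The numbers were 377 and 207 with a mean of at least 5 CPM (fewer models scored), and 282 and 166 on FPKM. Ratios on FPKM also had 1 added to both libraries, and Fosb was at -1.62 there, against -2.69 on CPM. The part of this added 1 in the change on FPKM was not tested. The ratio of the summed FOS level, 0.238 on deposited FPKM, was 0.253 on CPM, 0.202 without Fosl2 and 0.233 over union exons. That of the JUN family, 0.384, was 0.423 on CPM, 0.451 over union exons and 0.678 without Junb, so the JUN sum rests on Junb. No paired analysis was possible because each form has 1 library. Depth limits statements on Batf2, Batf3, Fosl1 and Fosb, which rest on few reads.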
